A study of Homo sapiens with 9 samples.

Results

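In cells of MDA-MB-231, a human triple-negative breast cancer line, genes were sought whose RNA moved the same way with wild-type MEL-18 and with its T334A form. The average of both MEL-18 groups was set against the empty vector, and a gene was kept when all 6 MEL-18 libraries lay on one side of all 3 vector libraries and the MEL-18 groups were alike. By this rule 2911 of 14738 tested genes, out of 26364 in the files, were shifted alike, 1578 of them higher and 1333 lower. The rule reads the same contrast that is described here, so the members are described by their values and not tested a second time.

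All 9 cultures had been infected with the lentiviral vector pLVX. It was empty in the vector group, carried wild-type MEL-18 in the MEL-18 WT group, and in the MEL-18 T334A group carried MEL-18 with alanine in place of a threonine that the series describes as phosphorylated. Cells were grown for 48 h in DMEM with 10% fetal bovine serum, and polyadenylated RNA was sequenced with a strand-marking kit. The series calls the 3 libraries of each group biological replicates. Whether they came from separate infections is not given in the sources used here, so the p-values speak only of the spread among these 9 cultures. A shift common to both MEL-18 groups cannot be told apart from a property of the one vector culture series that both were compared with.

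MEL-18, encoded by PCGF2, is a RING finger protein of Polycomb repressive complex 1 (PRC1). PRC1 ubiquitylates histone H2A at developmental genes, many of them with CpG-rich promoters, and works beside Polycomb repressive complex 2 (PRC2), which methylates histone H3. BMI1, a paralog of MEL-18, takes the same place in a related form of the complex, and in breast cancer both have been studied for their part in self-renewal and invasion.

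PCGF2 itself was read first, as a check of the labels. Its RNA stood at 22.2, 23.8 and 22.3 CPM (counts scaled to a common library size, with TMM, edgeR's trimmed mean method) with the vector. It stood at 1292, 1287 and 1279 CPM with MEL-18 WT and at 1419.9, 1451 and 1389 CPM with MEL-18 T334A. All 6 MEL-18 libraries were thus far above the vector, 59.4-fold on average. The log2 fold change was 5.89 ± 0.04 SE (edgeR quasi-likelihood test, Benjamini-Hochberg adjusted p = 7.94e-37). The labels of vector and MEL-18 held, while which MEL-18 group carried T334A cannot be read from these counts. Transgene and endogenous transcripts could not be told apart in these counts. BMI1 was low, between 3.30 and 4.48 CPM in the 9 libraries, the groups overlapped, and its difference of -0.16 ± 0.10 on the log2 scale was not called (adjusted p = 0.226).

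Library totals ran from 31643722 to 37005302 counts, and the tested genes held at least 99.95% of the counts of each library. The 6 genes taken as marks of the line (VIM, CD44, KRT8, KRT18, KRT19 and AXL) summed to 3429 to 3650 CPM. Of 5 genes expected to be low or absent in it, ESR1, PGR and CDH1 stayed under 1 CPM in every library, EPCAM stood at 7.14 to 12.7 CPM and ERBB2 at 61.5 to 71.7 CPM. The 5 muscle markers of that check stayed under 1 CPM each, and the summed lymphocyte and myeloid markers overlapped between the groups at 50.1 to 58.0 CPM, 6 of the 7 under 1 CPM. The 5 endothelial markers summed to 3.13 to 3.52 CPM with the vector, 2.41 to 2.84 with MEL-18 WT and 2.44 to 3.16 with MEL-18 T334A. Of these, PECAM1 (0.951 ± 0.18, 0.474 ± 0.12 and 0.330 ± 0.044 CPM) and CDH5 (0.948 ± 0.22, 0.605 ± 0.040 and 0.204 ± 0.058 CPM) were called lower, with all 6 MEL-18 libraries below the vector. Single genes of the longer marker lists stood far apart in 1 MEL-18 group. The muscle calcium channel RYR2 was at 0.339 ± 0.093, 0.463 ± 0.091 and 17.2 ± 0.999 CPM and the myosin MYH13 at 2.93 ± 0.14, 3.09 ± 0.22 and 0.353 ± 0.14 CPM, in the same order of groups. The lymphocyte receptor LY9 was at 0.0512 ± 0.018, 10.5 ± 0.50 and 0.0593 ± 0.033 CPM. RYR2, MYH13 and LY9 were not called with 1 mean for all 6 MEL-18 libraries (edgeR adjusted p = 0.0662, 0.455 and 0.0698). The summed neuronal, adipocyte and fibroblast markers also differed between the groups, and ADIPOQ was at 0 in all libraries. Neuronal ones stood at 13.5 to 14.6 CPM with the vector, 12.2 to 13.7 with MEL-18 WT and 28.5 to 29.3 with MEL-18 T334A, the defining genes RBFOX3 and STMN2 being under 1 CPM. Adipocyte ones stood at 3.14 to 3.47, 0.811 to 1.26 and 8.13 to 10.4 CPM in that order, with FABP4 the largest part. Fibroblast ones stood at 14.6 to 15.6, 18.6 to 21.1 and 19.1 to 25.8 CPM, carried by COL1A1 and PDGFRB, while DCN, LUM and FAP stayed under 1 CPM. The part of these markers in the results was not tested, and in bulk RNA fewer cells that make a transcript and less of it per cell cannot be told apart.

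In the contrast of both MEL-18 groups with the vector, 5595 of 14738 genes (38%) were called at an adjusted p below 0.05, 2783 (18.9%) higher and 2812 (19.1%) lower. All 6 MEL-18 libraries lay above all 3 vector libraries for 13.2% of tested genes and below them for 10.6%. A called gene whose libraries were so separated was counted as alike when the 95% interval of its log2 difference between MEL-18 T334A and MEL-18 WT stayed within 1.5-fold either way. This left 10.7% of tested genes shifted alike and higher and 9.04% shifted alike and lower, against 376 called genes that were separated but not alike and 2308 called genes whose libraries overlapped. Scaled by library totals alone, 63.6% of the calls were higher, against 49.7%, and 1930 genes were shifted alike higher and 899 lower.

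Most of these shifts were small, and among the larger ones more were upward than downward. The median size was 1.2-fold for genes shifted alike higher and 1.12-fold for those lower. A change of at least 1.5-fold was seen in 217 higher genes (1.47% of tested genes) and 29 lower genes (0.197%), and one of at least 2-fold in 42 and 6. The lower count depends on how alike is defined: where the difference between MEL-18 groups only had to be not called, the counts at 1.5-fold were 242 and 78. Over all called genes, alike or not, 557 higher and 189 lower moved by at least 1.5-fold. Of the genes that moved by at least 1.5-fold, 58 of the 217 and 11 of the 29 had a mean of at least 10 CPM, so this set was drawn mainly from genes of low abundance. Alike did not mean equal, since the limit of 1.5-fold was wider than the median shift in either direction. A gene moved mainly in 1 MEL-18 group could therefore pass. Of the 2911, 2080 were also called in the same direction in each MEL-18 group separately, 1197 higher and 883 lower. For 1114 of the 1578 higher genes the change was larger with MEL-18 T334A than with MEL-18 WT, as it was for 945 of the 1333 lower genes and for 9226 of all tested genes. The difference between the MEL-18 groups was itself called for 1201 of the 2911, against 40.9% of all tested genes.

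**Figure D1:**
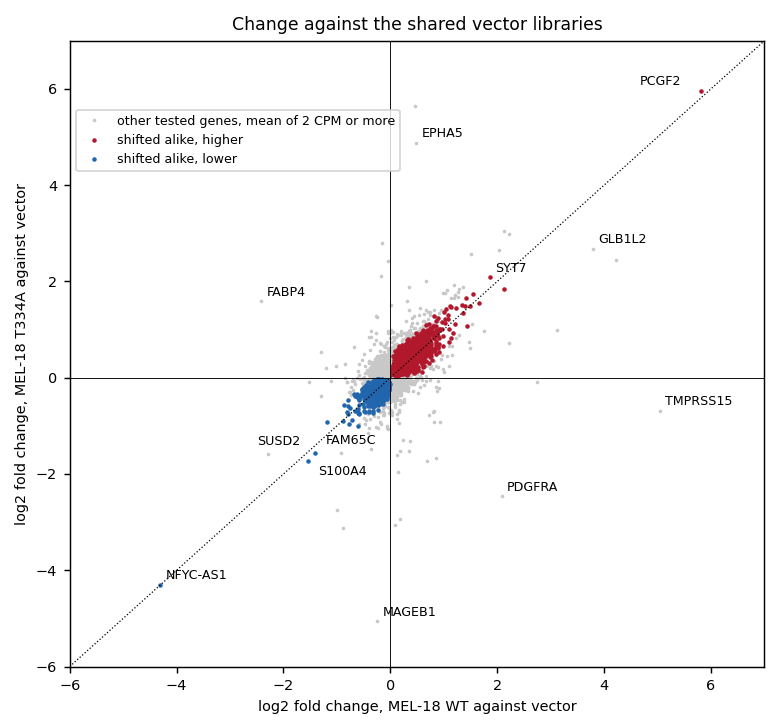
Log2 fold change of each gene with a mean of 2 CPM or more against the vector, MEL-18 WT on the x axis and MEL-18 T334A on the y axis, with genes shifted alike in red (higher) and blue (lower) and the dotted line at equal change. Both axes use the same 3 vector libraries, which by itself draws points toward the line; PCGF2 sits at the upper right, NFYC-AS1 at the lower left, and EPHA5, MAGEB1, TMPRSS15, PDGFRA and FABP4 lie far from the line.

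Among secreted and cell surface proteins, METRNL, a secreted factor related to meteorin, stood at 1.95, 1.73 and 1.82 CPM with the vector. It stood at 5.82, 5.10 and 5.18 CPM with MEL-18 WT and at 5.74, 6.31 and 6.17 CPM with MEL-18 T334A. The MEL-18 groups overlapped each other and neither came near the vector, a rise of 3.12-fold (log2 fold change 1.64 ± 0.11, adjusted p = 1.16e-12). CLMP, an adhesion molecule of the immunoglobulin family, rose from 2.45 to 3.39 CPM with the vector to 9.30 to 9.61 and 7.55 to 9.90 CPM, or 3.05-fold. BMP6, a bone morphogenetic protein, rose 2.80-fold from a mean of 0.932 ± 0.08 CPM to 2.61 ± 0.34 and 2.63 ± 0.42 CPM (SD, n = 3 in each group). PCDH1, a protocadherin of cell contacts, rose 2.28-fold. CACNG7, a membrane protein that tunes calcium channels and AMPA receptors, rose 2.72-fold, and ELFN2, a leucine-rich repeat protein of synapses, rose 2.46-fold, from 6.37 to 6.81 CPM to 13.9 to 15.1 and 17.3 to 19.3 CPM.

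Genes of signalling and membrane traffic were also in this set. SBK1, a serine/threonine kinase, was at 0.915, 1.40 and 1.02 CPM with the vector, at 5.06, 4.67 and 4.995 CPM with MEL-18 WT and at 4.25, 4.13 and 3.58 CPM with MEL-18 T334A. It rose 3.96-fold (log2 fold change 1.98 ± 0.15, adjusted p = 3.27e-12), with every MEL-18 WT library above every MEL-18 T334A library. SYT7, a calcium sensor of exocytosis, rose 3.92-fold from a mean of 0.834 ± 0.21 CPM to 3.04 ± 0.13 and 3.57 ± 0.064 CPM. RAB3IL1, an exchange factor for the vesicle protein Rab3A, rose 2.35-fold. GNAL, the G protein alpha subunit of olfactory and striatal neurons, was at 3.23, 3.54 and 3.67 CPM with the vector, at 9.17, 9.09 and 8.52 CPM with MEL-18 WT and at 9.09, 9.39 and 8.18 CPM with MEL-18 T334A. The MEL-18 groups overlapped fully, and the rise was 2.56-fold (log2 fold change 1.36 ± 0.09, adjusted p = 4.57e-13), in a stretch of chromosome 18 where the 20 tested genes on each side, its chromosomal neighbours, had a median of 0.17 on the same scale.

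Metabolic enzymes, transporters and carriers made a further group. DGAT2, which makes triglycerides from diglycerides, rose 2.90-fold, from 3.78, 3.81 and 4.72 CPM to 11.2, 11.3 and 10.2 CPM with MEL-18 WT and to 12.3, 13.9 and 12.5 CPM with MEL-18 T334A. CRABP2, the carrier that brings retinoic acid to its nuclear receptors, was at 17.3, 16.9 and 15.7 CPM with the vector, at 37.1, 34.6 and 37.1 CPM with MEL-18 WT and at 44.9, 46.3 and 48.7 CPM with MEL-18 T334A. The 3 groups did not overlap, and the rise over the vector was 2.46-fold (adjusted p = 3.52e-18) beside chromosomal neighbours with a median of -0.13. CA2, a carbonic anhydrase, rose 2.54-fold, TFR2, a transferrin receptor of iron sensing, 2.68-fold, and SLC22A3, an organic cation transporter, 2.38-fold from 2.51 ± 0.36 CPM to 6.73 ± 0.63 and 5.28 ± 0.24 CPM. The carbonic anhydrase CA12, also a hypoxia target, rose from 16.3 ± 1.3 CPM to 34.6 ± 2.2 and 32.8 ± 1.6 CPM (log2 fold change 1.05 ± 0.05).

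**Figure D2:**
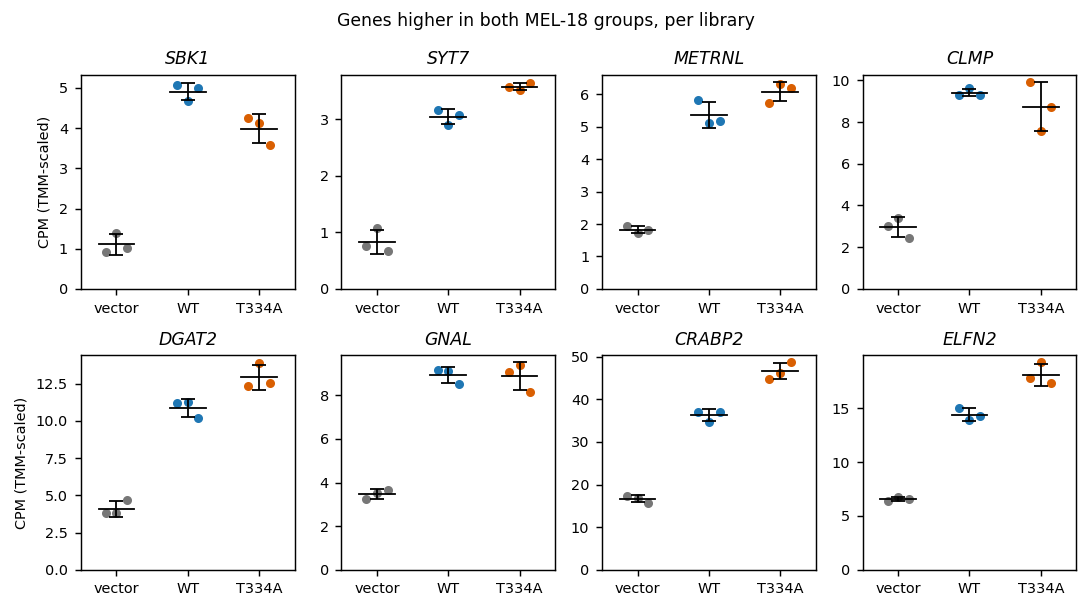
TMM-scaled CPM (y axes, from 0) of 8 genes shifted alike and higher in each library of the vector (grey), MEL-18 WT (blue) and MEL-18 T334A (orange) groups, with the group mean and SD (n = 3). In each panel the 6 MEL-18 libraries lie above the 3 vector libraries; CRABP2 and ELFN2 are also higher with MEL-18 T334A than with MEL-18 WT, and SBK1 lower.

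Among genes shifted alike and lower, S100A4, a calcium-binding protein long linked to cell motility and metastasis, led the protein-coding genes. It was at 22.4, 25.1 and 24.3 CPM with the vector, at 8.05, 7.49 and 9.09 CPM with MEL-18 WT and at 7.88, 8.12 and 5.72 CPM with MEL-18 T334A. The MEL-18 groups overlapped and were 3.11-fold below the vector (log2 fold change -1.64 ± 0.07, adjusted p = 3.01e-16), and the neighbours on chromosome 1 stood at a median of -0.17. FAM65C, a gene of the RIPOR family that RefSeq now lists as RIPOR3, was 2.81-fold lower, at 50.6 ± 5.9 CPM with the vector against 18.2 to 20.5 CPM with MEL-18 WT and 15.4 to 17.9 CPM with MEL-18 T334A. SLCO4A1, an organic anion transporter, was 2.07-fold lower, from 9.62 ± 1.2 CPM to 4.22 ± 0.98 and 5.06 ± 0.48 CPM. APOL1, an apolipoprotein L of trypanosome defence, was 1.83-fold lower, with the caution that the APOL family holds close copies.

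DUSP1, a phosphatase that switches off MAP kinases and itself an immediate early gene, was at 131, 136 and 130 CPM with the vector. With MEL-18 WT it was at 90.9, 90.1 and 81.0 CPM and with MEL-18 T334A at 62.9, 67.3 and 66.5 CPM, so the 3 groups stood apart in that order. Its mean change was 1.74-fold lower (log2 fold change -0.80 ± 0.03, adjusted p = 9.95e-17). PLAT, tissue plasminogen activator, was at 110, 123 and 128 CPM with the vector, at 77.3, 70.5 and 66.7 CPM with MEL-18 WT and at 78.6, 81.1 and 72.3 CPM with MEL-18 T334A. It was 1.62-fold lower (-0.69 ± 0.04) with the MEL-18 groups overlapping. PTGER4, the prostaglandin E2 receptor EP4, was 1.58-fold lower, from 28.2 to 28.6 CPM to 17.98 to 19.2 and 15.9 to 18.3 CPM. MISP, an actin-binding protein that positions the mitotic spindle, was 1.70-fold lower, at 39.2 ± 3.5 CPM against 22.2 ± 1.7 and 24.0 ± 0.70 CPM. Lower levels were also called for the B cell lectin CD22 (log2 fold change -0.80 ± 0.10), the sialyltransferase ST6GALNAC5 (-0.78 ± 0.10), the calpain CAPN8 (-0.71 ± 0.07), the matrix protein FBLN1 (-0.67 ± 0.10) and FAM71D (-0.69 ± 0.08). GSTM1 (-0.89 ± 0.09) and the pseudogene RPL13AP20 (-0.67 ± 0.08) belong to families with near-identical copies, and their counts are uncertain.

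**Figure D3:**
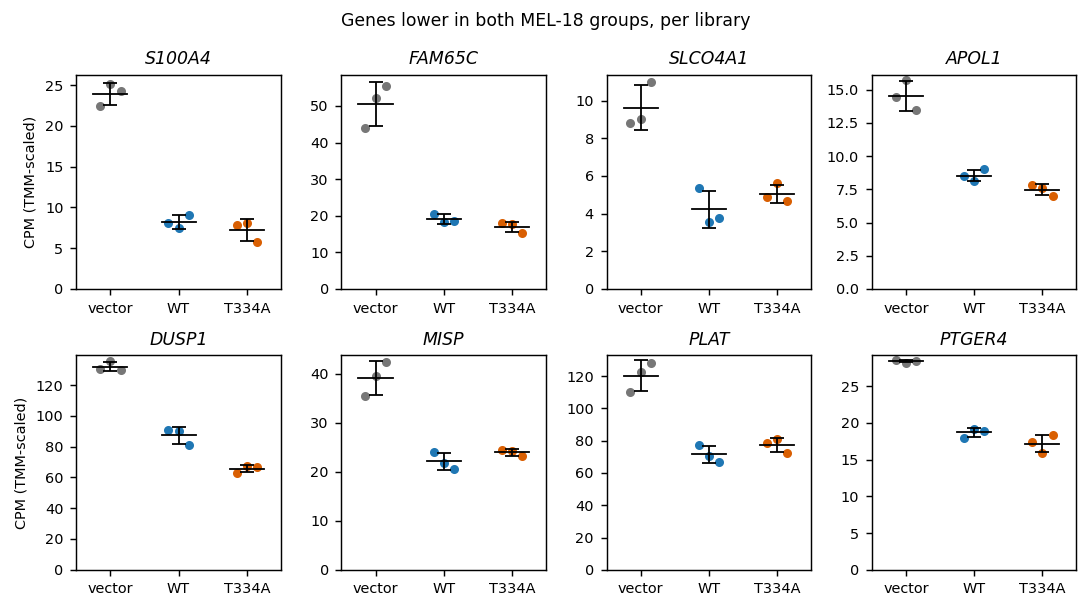
TMM-scaled CPM (y axes, from 0) of 8 genes shifted alike and lower in each library of the vector (grey), MEL-18 WT (blue) and MEL-18 T334A (orange) groups, with the group mean and SD (n = 3). In each panel the 6 MEL-18 libraries lie below the 3 vector libraries, and DUSP1 is lower still with MEL-18 T334A than with MEL-18 WT.

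The lowest fold of any gene shifted alike was that of NFYC-AS1, an RNA antisense to the transcription factor gene NFYC, which was chosen after its values were seen. It was at 41.7, 36.7 and 36.1 CPM with the vector, at 2.10, 1.76 and 1.90 CPM with MEL-18 WT and at 2.20, 1.95 and 1.66 CPM with MEL-18 T334A. The 2 MEL-18 groups overlapped, and the level was 19.8-fold below the vector (log2 fold change -4.31 ± 0.09, adjusted p = 2.40e-26). NFYC, on the other strand, was at 50.1 ± 0.80 CPM with the vector, 52.9 ± 1.42 with MEL-18 WT and 46.1 ± 0.55 with MEL-18 T334A, and its average difference of -0.02 ± 0.03 was not called. The strand setting of the counting is not given in the sources used here, so reads of this gene and of NFYC cannot be told apart with certainty.

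Promoter sequences are shown for 4 of these genes, since PRC1 is known at CpG-rich promoters and since DUSP1 is a classic target of the cyclic AMP response element. Each is the 250 bases before the start in RefSeq on GRCh38.p14, written 5′ to 3′ on the gene's strand. In METRNL (chr17:83080896-83081145, plus strand), GNAL (chr18:11689014-11689263, plus strand) and S100A4 (chr1:153545807-153546056, minus strand) the capitals mark each CG. In DUSP1 (chr5:172771196-172771445, minus strand) they mark the palindrome TGACGTCA.
METRNL: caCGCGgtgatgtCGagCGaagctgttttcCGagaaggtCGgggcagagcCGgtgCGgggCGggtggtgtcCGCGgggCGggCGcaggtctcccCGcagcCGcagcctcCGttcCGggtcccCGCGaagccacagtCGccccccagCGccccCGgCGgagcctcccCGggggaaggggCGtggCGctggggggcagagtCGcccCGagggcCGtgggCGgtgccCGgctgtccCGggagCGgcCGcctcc
GNAL: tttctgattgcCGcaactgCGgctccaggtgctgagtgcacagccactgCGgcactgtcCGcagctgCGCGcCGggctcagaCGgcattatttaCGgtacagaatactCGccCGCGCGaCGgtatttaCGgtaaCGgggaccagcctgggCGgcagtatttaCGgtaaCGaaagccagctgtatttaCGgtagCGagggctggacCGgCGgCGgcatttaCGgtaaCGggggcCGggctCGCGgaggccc
S100A4: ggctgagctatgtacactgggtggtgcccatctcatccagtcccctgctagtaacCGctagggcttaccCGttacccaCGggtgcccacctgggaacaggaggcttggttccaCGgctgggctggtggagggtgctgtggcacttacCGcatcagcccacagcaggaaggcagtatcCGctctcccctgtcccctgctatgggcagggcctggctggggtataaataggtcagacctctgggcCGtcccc
DUSP1: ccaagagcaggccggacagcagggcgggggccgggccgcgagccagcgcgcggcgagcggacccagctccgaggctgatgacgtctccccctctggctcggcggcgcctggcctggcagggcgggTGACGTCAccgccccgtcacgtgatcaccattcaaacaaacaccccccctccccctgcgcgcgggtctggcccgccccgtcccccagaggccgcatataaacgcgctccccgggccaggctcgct

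The windows of METRNL and GNAL, both raised, held 34 and 29 CG, with 78.4% and 62.8% G or C. The window of S100A4, which was lowered, held 7 CG at 62.8% G or C and 1 TATAAA. DUSP1, also lowered, held 30 CG at 74.4% G or C, with TGACGTCA 125 bases before the start and 1 TATAAA. TGACGTCA, which reads the same on both strands, was found in 319 of 11369 promoters of tested genes (2.81%), and a median promoter held 21 CG. A sequence match is a description and not a bound site. The 4 windows are examples and do not stand for the sets they come from. Whether the sets differ in promoter content was not tested. A promoter was at hand for 77.1% of tested genes, and for 79.0% of those shifted alike and higher and 84.2% of those lower. For genes that moved by at least 1.5-fold it was at hand for 72.4% of the higher and 79.3% of the lower. Any such comparison would thus cover only part of each set.

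Genes that both MEL-18 groups moved in one direction but by unequal amounts were led by ITM2A, a membrane protein of chondrocytes and T cells. It was at 0.256 ± 0.018 CPM with the vector, 4.86 ± 0.23 with MEL-18 WT and 1.42 ± 0.088 with MEL-18 T334A. GLB1L2, a beta-galactosidase-like protein, rose from 0.368 ± 0.013 CPM to 5.16 ± 0.17 and 2.37 ± 0.39 CPM, and C2CD4C from 0.650 ± 0.24 to 3.05 ± 0.16 and 5.22 ± 0.27 CPM. SUSD2, a sushi domain surface protein, fell from 43.5 ± 1.1 CPM to 8.90 ± 0.91 and 14.6 ± 1.5 CPM, an average log2 fold change of -1.93 ± 0.05. The AP-1 gene FOSB fell from 13.8, 8.68 and 6.22 CPM to 4.70, 5.54 and 4.15 CPM and then to 1.58, 1.13 and 1.55 CPM, with a wide spread among the vector libraries.

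In others the average came mainly from MEL-18 T334A. EPHA5, an ephrin receptor, was at 0.676 ± 0.062 CPM with the vector, 0.945 ± 0.044 with MEL-18 WT and 20.1 ± 1.6 with MEL-18 T334A. MAGEB1, a cancer-testis antigen of a family with close copies, was at 4.64 ± 0.30, 3.92 ± 0.16 and 0.135 ± 0.030 CPM, and RPE65, an isomerase of the visual cycle, at 3.89 ± 0.30, 2.11 ± 0.16 and 0.443 ± 0.089 CPM. With 1 mean for all 6 MEL-18 libraries, which counts the gap between the MEL-18 groups as error, EPHA5 (adjusted p = 0.0637) and MAGEB1 (adjusted p = 0.323) were no longer called.

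An average over the MEL-18 groups hides genes that they moved in opposite directions, of which 357 were called so, against 2471 called in the same direction in both, where 28.8% of tested genes were called with MEL-18 WT and 45.9% with MEL-18 T334A. The contrasts with the vector share its libraries, so these counts only describe the table. TMPRSS15, the protease enteropeptidase, was at 2.51 ± 0.25 CPM with the vector, 82.7 ± 1.8 with MEL-18 WT and 1.55 ± 0.22 with MEL-18 T334A. PDGFRA, a PDGF receptor, was at 4.36 ± 0.52, 18.5 ± 0.43 and 0.787 ± 0.24 CPM, and its average difference of -0.19 ± 0.12 was not called (adjusted p = 0.204). FABP4, a fatty acid binding protein, was at 2.96 ± 0.089, 0.549 ± 0.16 and 8.90 ± 1.2 CPM. Its average of -0.42 ± 0.15 (adjusted p = 0.0243) lost the call without vector replicate 2 or 3 or MEL-18 WT replicate 2 or 3 (adjusted p = 0.0547, 0.0720, 0.109 and 0.0621) and had the opposite sign with 1 mean for all 6 libraries. PPP2R2C, a phosphatase subunit, was at 3.31 to 3.90, 5.16 to 6.26 and a mean of 1.08 ± 0.36 CPM, and its average of -0.52 ± 0.13 was not called with 1 mean for all 6 libraries (adjusted p = 0.953).

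The limit of 1.5-fold between the MEL-18 groups (0.58 on the log2 scale) cut through a continuum. Just inside it were ADGRE1, with an interval of 0.07 to 0.58 for the log2 difference between MEL-18 T334A and MEL-18 WT, and SUSD4, with -0.05 to 0.58. NR4A2 (-0.59 to -0.08) and HAS2 (0.23 to 0.59) were just outside. ADGRE1 and NR4A2 were lower than the vector in all 6 MEL-18 libraries, and SUSD4 and HAS2 higher.

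Polycomb genes were called in both directions by small amounts. Of 31 tested PRC1 subunits other than PCGF2, 10 were called higher and 3 lower, 7 and 2 of them shifted alike, with a median log2 fold change of 0.03 against -0.01 over all tested genes. For this and every later list, counts shifted alike are to be read beside the shares of all tested genes. These were 10.7% shifted alike and higher and 9.04% shifted alike and lower. FBRSL1, a paralog of the PRC1 partner AUTS2, rose by 0.32 ± 0.04 and BCORL1, a corepressor of a variant PRC1, by 0.30 ± 0.04. PCGF1 fell by 0.21 ± 0.06 and PHC3 by 0.21 ± 0.03, beside chromosomal neighbours with medians of -0.13 and -0.18, and neither was called with the neighbours' shift taken out (adjusted p = 0.244 and 0.308). PHC3 was also not called with 1 mean for all 6 libraries (adjusted p = 0.0565). In the PRC2 list 1 of 14 was called higher and 2 lower (7.14% and 14.3%, below the 18.9% and 19.1% of all tested genes), or 1 and 5 with the neighbours' shift taken out. Among those called were C17orf96, a PRC2 accessory gene, at 0.36 ± 0.05, and the methyltransferase EZH2 at -0.14 ± 0.03, both shifted alike.

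Developmental regulators, which PRC1 is known to restrain in many cells, were called higher more often than lower. Of 15 tested HOX genes, 7 were called higher (46.7%, against 18.9% of all tested genes) and 0 lower. Of these, 4 were shifted alike, beside 10.7% of all tested genes shifted alike and higher. The median of the list was 0.24. HOXB9 rose from 11.5, 11.5 and 11.9 CPM to 21.1, 20.5 and 20.2 CPM with MEL-18 WT and to 15.9, 16.8 and 18.8 CPM with MEL-18 T334A (log2 fold change 0.69 ± 0.06), and HOXC10 rose by 0.56 ± 0.11. HOXB8, at 1.10 ± 0.24, was separated from the vector but its interval between MEL-18 groups was too wide to be called alike. Of 36 other developmental transcription factors 16 were called higher (44.4%) and 1 lower (2.78%), with 7 shifted alike. Among the 7 were the mesenchymal homeobox gene PRRX1 (1.56 ± 0.17) and GATA6 (0.60 ± 0.07, beside neighbours at 0.13). PRRX1 rose from 0.798 ± 0.025 CPM to 2.21 ± 0.18 and 2.54 ± 0.12 CPM. DLX3, called higher, was at 0.113 ± 0.021 CPM with the vector and entered the test only through the MEL-18 groups. Only 15 of 39 HOX genes and 36 of 72 other factors passed the filter. A gene low in the vector can pass it through the MEL-18 groups, so these shares may rest partly on such genes. With 1 mean for all 6 MEL-18 libraries the higher calls were 4 of the HOX genes and 7 of the other factors. That fit called fewer genes in general, 1477 higher and 933 lower of all 14738 tested, against 2783 and 2812.

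Among signalling lists, Wnt pathway targets had the largest share of calls, 14 of 19 higher and 1 lower. These were 73.7% and 5.26%, against 18.9% and 19.1% of all tested genes, with 6 shifted alike and a median of 0.22. TCF7, a nuclear partner of beta-catenin, rose by 0.77 ± 0.10, TNFRSF19 by 0.80 ± 0.19 and LEF1 by 0.34 ± 0.07. The 1 called lower was SFRP1, at -1.11 ± 0.34 and not alike. Its levels were 0.388 ± 0.0072 CPM with the vector, 0.145 ± 0.11 with MEL-18 WT and 0.223 ± 0.029 with MEL-18 T334A. The R-spondin receptor LGR5 rose by 1.77 ± 0.35 from 0.204 ± 0.075 CPM, with an interval between MEL-18 groups wider than the limit. NOTUM and LGR6, also called higher, were at 0.0607 ± 0.029 and 0.175 ± 0.042 CPM with the vector. LGR5, NOTUM and LGR6 were so low there that they entered the test only through the MEL-18 groups, and the share of the list rests partly on them. With 1 mean for all 6 libraries 8 of the Wnt targets were called higher, when 1477 of all 14738 tested genes were called higher and 933 lower. Of 23 Notch pathway genes 9 were called higher and 3 lower, with 5 and 1 shifted alike. HES4 (0.85 ± 0.10) and the ligand JAG2 (0.67 ± 0.10) rose more with MEL-18 T334A, and the receptor NOTCH3 fell alike, by 0.69 ± 0.13. YAP and TEAD targets split into 7 higher and 10 lower of 24 (29.2% and 41.7%), or 3 and 5 with 1 mean for all 6 libraries. TGF-beta and BMP targets split into 11 and 5 of 32 (34.4% and 15.6%), of which 2 and 3 were shifted alike, and into 3 and 3 with 1 mean.

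More immediate early genes were called lower than higher, although those shifted alike were about evenly split. Of 27 tested, 11 (40.7%, against 19.1% of all tested genes) were called lower and 6 higher, with 5 and 4 shifted alike and a median of -0.04. Besides DUSP1, FOSL2 fell by 0.41 ± 0.04 beside neighbours at -0.18, KLF4 by 0.33 ± 0.04 and JUNB by 0.35 ± 0.05. FOS fell from 59.1 ± 5.0 CPM to 52.5 ± 1.8 with MEL-18 WT and 30.6 ± 2.0 with MEL-18 T334A and was not alike. With 1 mean for all 6 libraries 6 of the list were lower and 3 higher, against 933 and 1477 of all 14738 tested genes. FOS (edgeR adjusted p = 0.104) and JUNB (edgeR adjusted p = 0.0521) were then not called.

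Epithelial and mesenchymal markers both had more genes called higher than lower. Of 26 epithelial markers 14 were called higher and 2 lower (53.8% and 7.69%, against 18.9% and 19.1% of all tested genes). Of these, 10 and 1 were shifted alike. CDH3, or P-cadherin, was at 4.88, 4.73 and 5.07 CPM with the vector, at 11.4, 11.1 and 10.8 CPM with MEL-18 WT and at 8.32, 10.7 and 8.79 CPM with MEL-18 T334A, a rise of 2.08-fold (1.05 ± 0.08). The desmosomal cadherin DSC2 rose by 0.71 ± 0.05, and EPCAM by 0.57 ± 0.06 against neighbours at -0.22, while the junction protein JUP fell by 0.42 ± 0.05. Of 26 mesenchymal markers 13 were called higher and 2 lower (50% and 7.69%), with 11 and 2 shifted alike. The largest change among the called genes of this list was a fall, that of S100A4 (-1.64 ± 0.07). Those that rose alike included ACTA2, smooth muscle actin (0.67 ± 0.16), and the transcription factor SNAI1 (0.46 ± 0.09). Among 14 breast cancer stem cell markers 9 were higher and 2 lower (64.3% and 14.3%). The drug transporter ABCG2 was at 0.73 ± 0.10, the aldehyde dehydrogenase ALDH1A3 at 0.66 ± 0.07 and CD24 at 0.64 ± 0.09. CD24 and EPCAM stand in both the stem cell and epithelial lists, CD24 has near-identical copies, and high CD24 is commonly read as the opposite of a breast cancer stem cell phenotype.

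Of 36 collagen and laminin chains 17 were called higher and 5 lower (47.2% and 13.9%, against 18.9% and 19.1% of all tested genes). Of these, 12 and 1 were shifted alike, and the median of the list was 0.21. COL4A4 rose by 0.91 ± 0.14, COL16A1 by 0.74 ± 0.13 and COL1A1 by 0.48 ± 0.07. Among the 5 lower, COL4A6 was at -1.11 ± 0.30 (0.20 with MEL-18 WT and -2.41 with MEL-18 T334A) and was not alike. LAMA3 (1.32 ± 0.14, beside neighbours at 0.12) and LAMA4 (1.11 ± 0.07) rose more with MEL-18 WT and were not alike. Matrix proteases and their inhibitors were called in both directions, 13 higher and 13 lower of 45 (28.9% and 28.9%), with 6 and 6 shifted alike. MMP1, the interstitial collagenase, rose from 0.580, 0.684 and 0.669 CPM to 2.35, 2.31 and 2.53 CPM with MEL-18 WT and to 2.42, 2.01 and 2.79 CPM with MEL-18 T334A (3.71-fold, log2 fold change 1.89 ± 0.19). The membrane proteases MMP15 and MMP17 rose by 0.68 ± 0.10 and 0.68 ± 0.15. ADAMTS12, called lower, was at -1.16 ± 0.16 (-0.16 with MEL-18 WT and -2.16 with MEL-18 T334A) and was not alike. TIMP3, a metalloprotease inhibitor, fell from 117 ± 6.7 CPM to 83.8 ± 5.0 and 71.1 ± 7.3 CPM (-0.60 ± 0.04), as PLAT did above. Of 15 integrins 3 were higher and 5 lower (20% and 33.3%), with 0 and 3 shifted alike.

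Among lists with more genes lower, S100 proteins had 8 of 11 (72.7%, against 19.1% of all tested genes) called lower and 0 higher. Of these, 6 were shifted alike, and the median of the list was -0.36. After S100A4, S100A10 fell by 0.36 ± 0.02 and S100A6 by 0.37 ± 0.03, from 672 ± 12 CPM to 484 ± 2.5 and 556 ± 40 CPM. Most S100 genes lie in a cluster on chromosome 1, and for 10 of the 11 the neighbours' median was beyond 0.1, its median over the list being -0.17. With the neighbours' shift taken out, 6 were lower and 2 higher, and S100A6 and S100A10 stood at -0.22 and -0.21. The neighbours of a clustered S100 gene include other S100 genes, so the shift taken out is not independent of the list.

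In lists of division, protein folding and lipid synthesis more genes were called lower than higher, by small amounts. Of 42 G2/M genes 23 (54.8%) were called lower and 2 (4.76%) higher, against 19.1% and 18.9% of all tested genes. Of the called ones 16 and 2 were shifted alike, and the median of the list was -0.08. ECT2, an exchange factor of cytokinesis, fell from 450, 454 and 454 CPM to 379, 378 and 385 CPM and to 335, 318 and 338 CPM (-0.35 ± 0.02) and the kinetochore gene NUF2 by 0.30 ± 0.03, beside neighbours at -0.19 and -0.16. With the neighbours' shift taken out these were -0.17 and -0.15. The 2 higher were BUB3 (0.26 ± 0.03) and MKI67 (0.19 ± 0.03), both on chromosome 10 with neighbours at 0.22 and 0.26; with that shift taken out BUB3 was at 0.04 (adjusted p = 0.277) and MKI67 at -0.07 (adjusted p = 0.0508). With library totals alone 14 G2/M genes were lower and 7 higher, when 1972 and 3439 of all 14738 tested genes were. With 1 mean for all 6 libraries 6 and 2 were, against 933 and 1477 of all tested genes. In the S phase list 21 of 55 were lower and 7 higher (38.2% and 12.7%), or 14 and 8 with library totals alone and 4 and 2 with 1 mean.

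In the heat shock and chaperone list, 55.2% of the 29 tested genes (16) had a called fall and 10.3% (3) a called rise. For all tested genes, the reference for each list here, these shares were 19.1% and 18.9%. Shifted alike were 9 genes that fell and 3 that rose, and the list had a median of -0.11. HSPH1 fell by 0.27 ± 0.02 and HSP90AA1 by 0.24 ± 0.03, the latter more with MEL-18 T334A than with MEL-18 WT (-0.40 against -0.07) and not called with 1 mean for all 6 libraries (adjusted p = 0.123). Of 37 sterol and fatty acid synthesis genes 18 were called lower and 2 higher (48.6% and 5.41%), with 8 and 2 shifted alike. HSD17B7 fell by 0.30 ± 0.04 and MSMO1 by 0.26 ± 0.03, beside neighbours at -0.14 and -0.16, and stood at -0.17 and -0.11 with that shift taken out. With 1 mean for all 6 libraries 7 of the chaperones and 4 of the sterol genes were lower, when 933 of all 14738 tested genes were. Ribosomal protein genes, 19 of 78 lower and 4 higher (24.4% and 5.13%), were closer to the share of all tested genes that was lower.

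**Figure D4:**
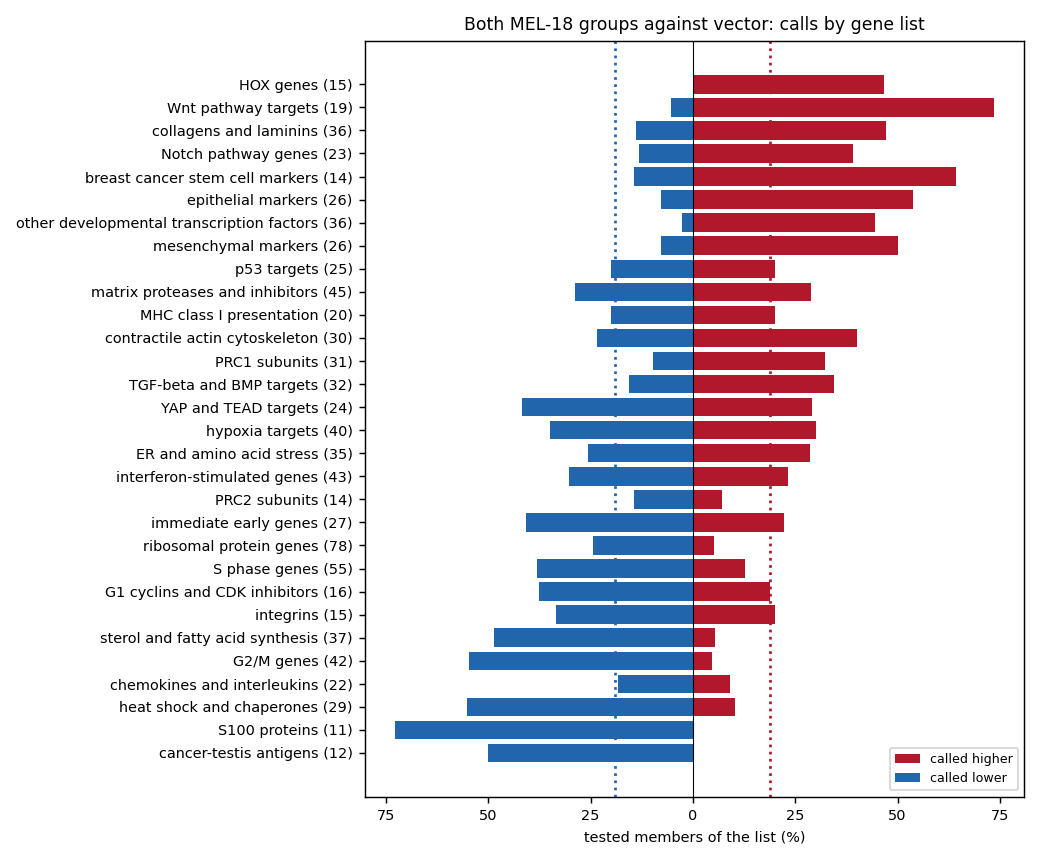
Share of tested members of each gene list (number tested in brackets) called higher (red, to the right) or lower (blue, to the left) in both MEL-18 groups against the vector, with dotted lines at the shares of all tested genes, 18.9% and 19.1%. HOX genes, Wnt targets and epithelial, mesenchymal and stem cell markers extend to the right, and S100, G2/M and heat shock genes to the left.

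Several other lists were called in both directions. Hypoxia targets were called higher in 12 and lower in 14 of 40 cases (30% and 35%, against 18.9% and 19.1% of all tested genes). Of the 13 shifted alike 11 were higher, with CA12 and the oxygen sensor EGLN3 (0.56 ± 0.07). Interferon-stimulated genes were 10 higher and 13 lower of 43 (23.3% and 30.2%), with 8 and 8 shifted alike. MHC class I genes, 4 and 4 of 20 (20% and 20%), were near the shares of all tested genes. Of 22 chemokines and interleukins 2 were higher and 4 lower (9.09% and 18.2%). CXCL16 rose by 1.29 ± 0.24 from 0.439 ± 0.15 CPM and CCL28 by 0.77 ± 0.13, while CXCL8, or interleukin 8, fell by 0.76 ± 0.14 from 2.05 ± 0.20 CPM and IL11, from 31.7 ± 0.61 CPM to 21.8 ± 0.55 and 24.4 ± 0.58 CPM, by 0.46 ± 0.04. Cancer-testis antigens were not among these: 6 of 12 (50% against 19.1%) were called lower and 0 higher, with a median of -0.38, or -0.01 with MEL-18 WT and -0.51 with MEL-18 T334A, and 0 were shifted alike.

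The genes shifted alike were spread unevenly over the genome. On chromosome 10, 173 of 580 tested genes (29.8%, against 10.7% overall) were shifted alike and higher and 10 lower, and its median log2 fold change was 0.11. Chromosome 18 had 19.9% higher and a median of 0.09. Shifts downward were most frequent on chromosome 3 (19.1%, against 9.04% overall), chromosome 2 (18.5%, median -0.06) and chromosome 7 (14.5%, median -0.07). On chromosome 3, 14.2% of genes were also shifted alike and higher, so both directions occurred there.

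Larger shifts followed this pattern less. The median of the neighbours lay beyond 0.1 on the gene's own side for 10.8% of all tested genes, for 14.5% of those shifted alike and higher and for 32.3% of those shifted alike and lower. Among genes shifted by at least 1.5-fold it did so for 4.17% of the higher and 10.3% of the lower. These higher genes made up 1.90% of the tested genes of chromosome 10, between 0.716% on chromosome 7 and 3.17% on chromosome 13. With the neighbours' shift taken out, 1752 of the 2911 genes remained shifted alike, and 233 higher and 31 lower genes moved by at least 1.5-fold. Whether DNA copy number differed between the cultures was not tested.

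**Figure D5:**
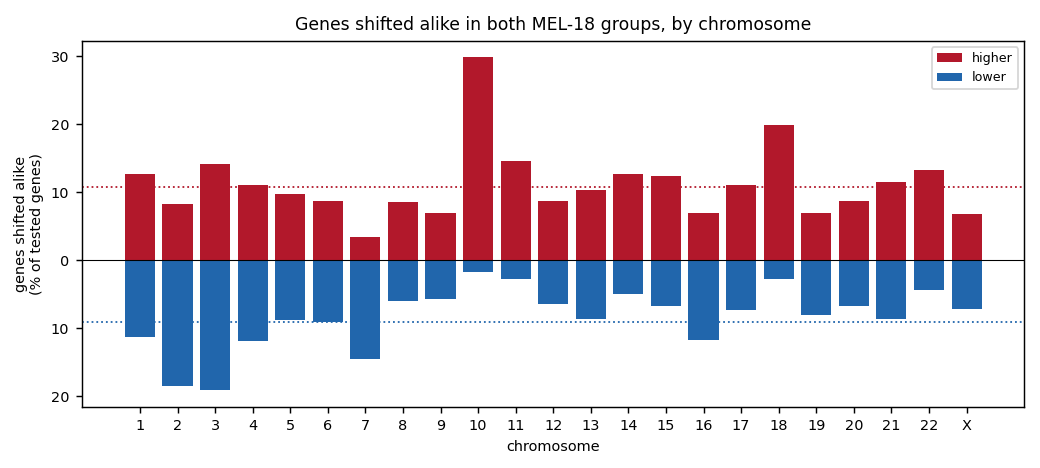
Percent of the tested genes of each chromosome that were shifted alike and higher (red, upward) or lower (blue, downward) in both MEL-18 groups, with dotted lines at 10.7% and 9.04%, the shares of all tested genes. Chromosome 10 reaches 29.8% higher, and chromosomes 2 and 3 reach 18.5% and 19.1% lower.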

How the data were processed

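The authors deposited whole-number counts of reads per gene symbol, not normalized, for each of 9 libraries of MDA-MB-231 cells. CASAVA 1.8, STAR 2.5.3a, featureCounts, Subread 1.5.3 and hg19 are named in the submitters' processing notes. Annotation, strand setting and the treatment of multi-mapping reads were not given in the sources used here, so overlapping, antisense and near-identical genes are uncertain.

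Genes that passed edgeR's filterByExpr were tested in edgeR 4.0.16 (R 4.3.3) with its two-sided quasi-likelihood F test on all 9 libraries, with TMM factors of 0.979 to 1.02, a mean per group and each MEL-18 group given the same weight. The filter asks for enough counts in any 3 libraries, so a gene low in the vector can enter through the MEL-18 groups. P-values were adjusted over all 14738 genes by Benjamini-Hochberg and called below 0.05. The common biological coefficient of variation was 2.57%. Errors of log2 fold changes are SE, and errors of CPM are SD over the 3 libraries of a group. The interval between MEL-18 groups used the fitted SE at 26.4 degrees of freedom and a level of 95%. Replicates of a group differed by more than sampling noise, the chi-square per degree of freedom being 1.49 to 3.98.

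Named genes were PCGF2, the 15 highest and 15 lowest genes shifted alike at a mean of at least 2 CPM, up to 4 called genes of each list with the largest change, the 4 highest and 4 lowest separated but unequal genes, the 4 most opposed genes, and those at the limit. Uncharacterised, antisense and small RNA names were left out. The text gives part of the list genes, and some list genes below the first 4 were added after their values were seen. The members and the lists were chosen with earlier results of these data known. Gene order and chromosomes came from RefSeq on GRCh38.p14, where 23623 symbols matched directly, 1571 by synonym and 1170 not at all. Alternatives were DESeq2 1.42.0, limma 3.58.1 voom, other scalings and filters, a replicate block, a minimum change, 1 mean for all 6 MEL-18 libraries, other definitions of alike and each library left out. The removal of the neighbours' shift and the counts at 1.5-fold were added after the data were seen.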

Additional observations from a re-analysis of the deposited data

Results flagged for a closer look

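The effect of the construct differed between MEL-18 WT and MEL-18 T334A for part of the genes named above, by the edgeR quasi-likelihood test of the difference itself at an adjusted p below 0.05. That difference was called for 40.9% of tested genes, so such genes are common. All values here are log2 differences, MEL-18 T334A minus MEL-18 WT.

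Among genes shifted alike by their interval and higher than the vector, the difference was still called for PCGF2 (0.14), DGAT2 (0.25), CRABP2 (0.36), ELFN2 (0.33), RAB3IL1 (0.40), DSC2 (0.44), EPCAM (0.28) and MKI67 (0.11), all higher with MEL-18 T334A. It was called in the other direction for SBK1 (-0.30), SLC22A3 (-0.35), HOXB9 (-0.26) and CDH3 (-0.25). Among genes lower than the vector in both groups, the fall was deeper with MEL-18 T334A for DUSP1 (-0.41), TIMP3 (-0.24), JUNB (-0.35), PHC3 (-0.24), ECT2 (-0.20), CRIM1 (-0.21), AMOTL2 (-0.08), HSPH1 (-0.15) and HSP90AA1 (-0.33). It was shallower with MEL-18 T334A for CAPN8 (0.30), ADGRE1 (0.33), EZH2 (0.08), HSD17B7 (0.29), MSMO1 (0.12), NUF2 (0.15), S100A6 (0.20), S100A10 (0.23) and IL11 (0.16).

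Separated from the vector but unequal were ITM2A (-1.78), GLB1L2 (-1.11), LAMA3 (-0.40) and LAMA4 (-0.74), which rose more with MEL-18 WT, and EPHA5 (4.40), C2CD4C (0.77), HAS2 (0.41), HES4 (0.44), JAG2 (0.43), PMEPA1 (0.90), TGFBI (0.76) and MYLK (0.63), which rose more with MEL-18 T334A. MAGEB1 (-4.81), RPE65 (-2.24), FOSB (-1.76), FOS (-0.78), NR4A2 (-0.34) and CDH5 (-1.55) fell more with MEL-18 T334A, and SUSD2 (0.71) fell more with MEL-18 WT. The genes with opposite directions differed by -5.73 (TMPRSS15), -4.55 (PDGFRA), 4.01 (FABP4) and -2.41 (PPP2R2C). In 3 markers of other cell types 1 MEL-18 group stood apart, with differences of 5.20 (RYR2), -3.13 (MYH13) and -7.41 (LY9), the last against a level of a few counts per library. NFYC, which was not called against the vector, differed by -0.20.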

How the results depend on the processing

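Counts of called genes and of genes shifted alike stayed within 1.5 times of those reported with RLE factors, library totals, either other filter, limma voom, DESeq2 (2326 higher and 2312 lower), the neighbours' shift taken out (2459 and 2027, with 1401 and 1023 shifted alike) and each library left out. Against a minimum change of 1.5-fold 178 genes were called higher and 49 lower. With 1 mean for all 6 MEL-18 libraries the calls were 1477 higher and 933 lower. Requiring a call in each MEL-18 group left 1197 genes shifted alike higher and 883 lower. Requiring instead that the difference between MEL-18 groups was not called left 1098 higher and 778 lower. Of these, 242 and 78 moved by at least 1.5-fold. With the interval held within 1.3-fold, 103 higher and 13 lower genes moved alike by at least 1.5-fold, and within 2-fold 377 and 68. That count ran from 184 to 245 higher and from 24 to 35 lower with each library left out in turn.

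FABP4 had the opposite sign with 1 mean for all 6 libraries (0.67), whose mean CPM was 1.60 times that of the vector. The main contrast averages its log2 fold changes of -2.42 (MEL-18 WT) and 1.59 (MEL-18 T334A). MKI67 had the opposite sign with the neighbours' shift taken out (-0.069), that shift, given above, being larger than its own change. Over the 200 genes tracked, 251 gene and setting pairs lost the call, 136 of them against the minimum change and 45 with 1 mean, and 17 genes lost it at least once when a library was left out.

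With the replicate number as a block 2661 genes were called higher and 2647 lower, with 1543 and 1309 shifted alike, 215 and 29 of them by at least 1.5-fold. Libraries with the same number in different groups had correlations of their deviations between -0.279 and 0.116. For unlike numbers they lay between -0.222 and 0.31, so the numbers gave no sign of pairing. Whether cultures were paired in another way was not tested. Genes of a few CPM rest on few counts, and the interval between MEL-18 groups is then often too wide for a gene to count as alike.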

Other observations

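Members of lists not described above also shifted alike. Among cell cycle inhibitors, CDKN1C rose from a mean of 3.76 ± 0.16 CPM with the vector to 5.62, 5.05 and 5.81 CPM with MEL-18 WT and 5.37, 6.25 and 4.88 CPM with MEL-18 T334A (log2 fold change 0.55 ± 0.10, edgeR adjusted p = 3.48e-05), and CDKN1A rose by 0.27 ± 0.05. In the list of G1 cyclins and inhibitors 3 of 16 genes were called higher and 6 lower (18.8% and 37.5%, against 18.9% and 19.1% of all tested genes). Of 25 p53 targets 5 were higher and 5 lower (20% and 20%), near the shares of all tested genes, with 3 and 1 shifted alike. Among them was the death receptor FAS, which rose by 0.59 ± 0.07 beside neighbours at 0.11. It went from 7.05, 6.42 and 7.43 CPM to 10.9, 10.9 and 10.1 CPM and to 10.3, 10.5 and 10.2 CPM. ATF3, a stress transcription factor, rose by 0.31 ± 0.09. Of 35 genes of endoplasmic reticulum and amino acid stress 10 were higher and 9 lower (28.6% and 25.7%).

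Contractile actin genes were called higher in 12 and lower in 7 of 30 cases (40% and 23.3%, against 18.9% and 19.1% of all tested genes). Of these, 8 and 2 were shifted alike. TAGLN, an actin-binding protein of smooth muscle, rose by 0.39 ± 0.10. MYLK, the myosin light chain kinase, rose in both groups but not alike, from 25.2 ± 0.45 CPM to 31.7 ± 0.64 and 49.0 ± 3.8 CPM. The same order was seen in the TGF-beta targets TGFBI, at 24.4 ± 0.53, 35.6 ± 1.4 and 60.2 ± 3.7 CPM, and PMEPA1, at 4.89 ± 0.39, 7.19 ± 0.48 and 13.5 ± 0.69 CPM. Among YAP and TEAD targets AMOTL2 fell by 0.28 ± 0.02 and CRIM1 by 0.23 ± 0.03, the latter beside neighbours at -0.21.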
